A study of Mus musculus with 9 samples.

Results

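The forkhead genes encode transcription factors that share a winged-helix DNA-binding domain. Every protein-coding gene whose symbol is Fox followed by 1 letter and 1 number was taken, which gave 44 of the 50686 genes in the deposited count table. Members were picked by symbol and by no measured value, but the family was chosen with earlier results of these data known. Total RNA was sequenced from control MC3T3-E1 osteoblasts, from the same line exposed to 10 μM SB216763 over 14 days, and from mouse pulmonary ECs labelled as having no treatment, with 3 libraries in each group. SB216763 is a small-molecule inhibitor of GSK3, the kinase that marks β-catenin for destruction. MC3T3-E1 is a cloned line from mouse calvaria, so all 6 osteoblast libraries come from 1 clone. The labels repeat 1 treatment protocol for all samples, and the groups were therefore read from the titles and treatment entries. The culture time of the controls and the strain and age of the mice behind the ECs are not given in the sources used here. Nothing states that the 3 libraries of a group were separate cultures, so the p-values measure only the spread between these libraries, which may be technical.

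Forkhead factors are sorted into lettered subfamilies with different roles. FOXO factors are phosphorylated by AKT and held in the cytoplasm, and in the nucleus they turn on genes of cell cycle arrest, antioxidant defence and autophagy. FOXM1 accumulates in dividing cells and drives the genes of G2 and mitosis. FOXC and FOXF factors act in the mesenchyme of the embryo, and members of each are needed for vessels.

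The libraries held 30990107 to 68946333 counts. Levels are given as CPM, the counts of a gene scaled to a fixed library total, after TMM normalization, as mean ± SD over the 3 libraries of a group, and 3 counts correspond to 0.0473 to 0.104 CPM. Levels of different genes were compared only per kilobase of exon. Differences were tested with edgeR's quasi-likelihood test in 1 fit of all 9 libraries over 15531 genes, with Benjamini-Hochberg adjustment. A gene was called higher or lower at an FDR under 0.01, and was past the fold threshold where its log2 fold change was also at least 2 in size. The defining endothelial markers (Cdh5, Pecam1, Kdr, Tie1, Tek, Vwf, Nos3, Emcn) summed to 6777 to 6979 CPM in ECs, to 3.69 to 4.62 CPM in controls and to 4.98 to 5.45 CPM after SB216763. The osteoblast markers (Sp7, Runx2, Col1a1, Col1a2, Alpl, Ibsp, Bglap) summed to 43921 to 59349 CPM in controls, to 8068 to 8339 CPM after SB216763 and to 45.1 to 64.5 CPM in ECs.

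Of the 44 forkhead genes, 23 had enough counts to be tested. A gene that entered the test through 1 group alone could hardly fail to differ, so the counts of called members are a description. At a mean of at least 1 CPM there were 19 forkhead genes in controls, 18 after SB216763 and 16 in ECs. The forkhead genes together made up 1129 ± 28.2 CPM in controls, 1294 ± 17.4 CPM after SB216763 and 1141 ± 2.78 CPM in ECs. In controls the order per kilobase was led by Foxk2 with 32.5 ± 1.07 CPM per kb, Foxm1 with 25.5 ± 0.113 and Foxp4 with 20.6 ± 0.241, whose libraries did not overlap. After SB216763 the first places were held by Foxo3 with 42.1 ± 0.404 CPM per kb, Foxc1 with 27.8 ± 0.873 and Foxf1 with 25.4 ± 1.32, and Foxm1 stood at rank 17 with 2.95 ± 0.0177. In ECs Foxm1 led with 30.9 ± 0.798 CPM per kb, ahead of Foxk2 with 26.6 ± 0.0552 and Foxf1 with 24.2 ± 0.503, and Foxo1 came next with 17.4 ± 0.426. In none of the 3 groups did the libraries of these leading genes overlap with those of the next gene in the order. Further down the order neighbours did overlap, such as Foxf2 and Foxo3 in controls, both at 15.3 CPM per kb.

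**Figure D1:**
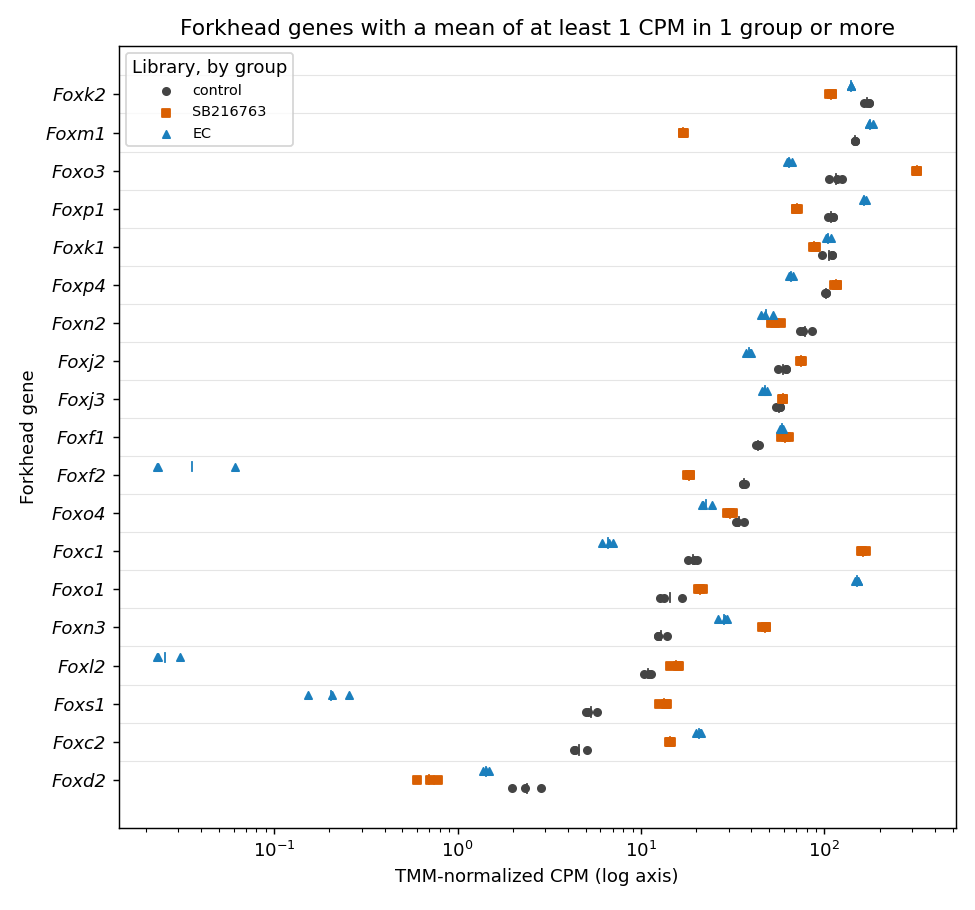
Level of each forkhead gene with a mean of at least 1 CPM in 1 group or more, in TMM-normalized CPM on a log axis, with 1 point per library and a short line at the group mean. Foxc1 and Foxo3 are highest in the SB216763 libraries, Foxm1 is low in the SB216763 libraries alone, Foxo1 is highest in ECs, and Foxf2, Foxl2 and Foxs1 are lowest in ECs.

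SB216763 changed most of the expressed forkhead genes, in both directions and mostly by less than the fold threshold. Against controls, 12 of the 23 tested members were higher (52.2%, beside 32.9% of all genes tested) and 9 were lower (39.1%, beside 32.0%). Past the fold threshold, Foxc1 and Foxl1 were higher (2 of 23, 8.70%, beside 3.81% of all genes), and Foxm1, Foxd1 and Foxn1 were lower (3 of 23, 13%, beside 5.84%). The median log2 fold change of the 23 was 0.19, and that of all genes tested was 0.01. Foxj3 and Foxo4 were not called. Scaling by library size alone moved the median of all genes to 0.22, and with it Foxn3 also passed the fold threshold (log2 fold change 2.07) and Foxj3 was called higher (adjusted p = 1.9e-05, edgeR).

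**Figure D2:**
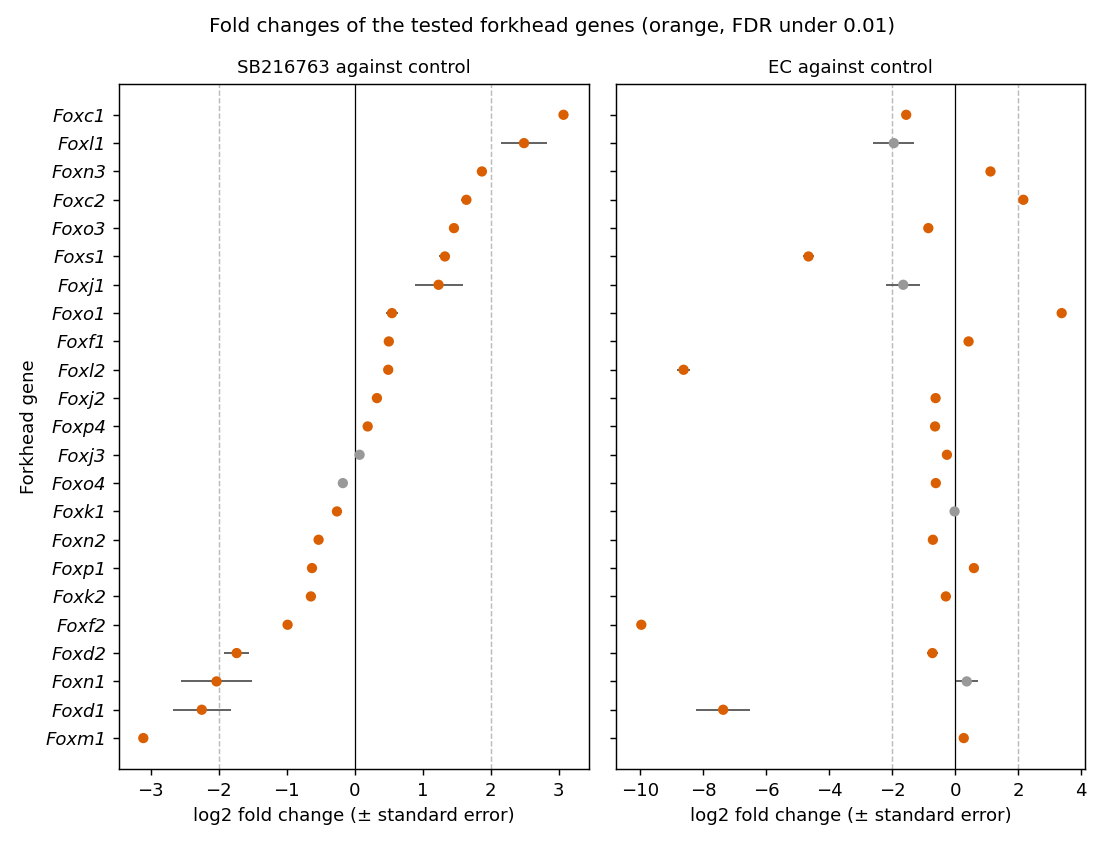
Log2 fold change ± standard error of the 23 tested forkhead genes, for SB216763 against control on the left and ECs against control on the right, with genes called at an FDR under 0.01 in orange and dashed lines at the fold threshold. On the left the values run from Foxm1 at -3.11 to Foxc1 at 3.07, and on the right from Foxf2 at -9.96 to Foxo1 at 3.39.

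Foxm1, the forkhead factor of the G2 and mitotic program, fell furthest. It measured 146, 147 and 146.5 CPM in the control libraries, 16.9, 16.9 and 17.1 CPM in the SB216763 libraries, and 176, 175 and 183 CPM in the EC libraries. The treated libraries lay far below both other groups, and the 3 groups did not overlap. The log2 fold change against control was -3.11 (SE 0.05, adjusted p = 1.96e-17, edgeR quasi-likelihood test), an 8.64-fold lower level. ECs stood 1.21-fold above controls (log2 fold change 0.28, SE 0.04, adjusted p = 7.91e-06, edgeR). In these bulk libraries, fewer dividing cells and less Foxm1 RNA per cell cannot be told apart. The exons of Foxm1 (chr6:128362967-128376146, plus strand) overlap those of the annotated genes Gm44596 and Tex52 on the same strand, so its count is uncertain to that extent.

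The genes that FOXM1 is known to activate moved the same way as Foxm1. All 22 genes on the list were lower after SB216763 (beside 32.0% of all genes tested), 21 of them past the fold threshold (95.5%, beside 5.84%), with a median log2 fold change of -3.58. Plk1, a mitotic kinase, fell from 55.6 ± 0.775 to 2.69 ± 0.498 CPM, a log2 fold change of -4.36. Ccna2, a cyclin of S phase and G2, fell from 131 ± 6.13 to 7.47 ± 0.47 CPM, and Cdc20, an activator of the anaphase-promoting complex, from 82.2 ± 3.41 to 5.03 ± 0.201 CPM. Kif20a, a kinesin of cytokinesis, fell from 80.7 ± 1.85 to 5.22 ± 0.312 CPM. The phosphatase gene Cdc25b alone stayed short of the fold threshold, at 37.5 ± 2.06 CPM in controls and 22.8 ± 1.13 CPM after treatment. Between ECs and controls the same list divided, with 10 genes higher in ECs (45.5%, beside 39.0%), 7 lower (31.8%, beside 37.9%) and a median of 0.06. None passed the fold threshold, beside 13.5% of all genes higher and 9.87% lower. Other cell cycle factors act on these genes as well, and the part of Foxm1 in their levels was not tested.

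Foxc1 showed the largest rise. FOXC1 is a factor of embryonic mesenchyme, with roles in the skull bones, the eye and the vessels. The control libraries measured 19.5, 20.2 and 18.02 CPM, the SB216763 libraries 161, 168 and 158 CPM, and the EC libraries 6.71, 7.07 and 6.09 CPM. The 3 groups were separate, with ECs lowest and treated osteoblasts highest. The log2 fold change for SB216763 against control was 3.07 (SE 0.06, adjusted p = 1.6e-16, edgeR), an 8.40-fold rise. Against ECs the treated cells were 24.6-fold higher (log2 fold change 4.62, SE 0.06, adjusted p = 1.14e-18, edgeR), and ECs lay 2.93-fold below controls. Foxc1 therefore moved away from its EC level.

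Foxc2, its closest relative and a factor of lymphatic vessels and valves, had another order. It measured 4.59 ± 0.44 CPM in controls, 14.4 ± 0.133 CPM after SB216763 and 20.8 ± 0.673 CPM in ECs. Its log2 fold change was 1.64 for SB216763 against control (SE 0.07, adjusted p = 1.01e-11, edgeR) and 2.17 for ECs against control (SE 0.07, adjusted p = 8.5e-14, edgeR). Treated cells remained 1.44-fold below ECs, a difference that was called (adjusted p = 1.33e-06, edgeR). Per kilobase, Foxc1 made up 66.2% ± 1.53 of the summed Foxc1 and Foxc2 counts in controls, 84.0% ± 0.535 after SB216763 and 12.96% ± 0.848 in ECs. Osteoblasts held mostly Foxc1 in both states, and ECs mostly Foxc2.

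Foxc1 and Foxc2 each lie in a chromosomal cluster with other forkhead genes. On chromosome 13, Foxq1 (chr13:31556134-31560976), Foxf2 (chr13:31625816-31631403) and Foxc1 (chr13:31806633-31812476) follow each other on the plus strand, with starts 69.7 kb and 180.8 kb apart in the GENCODE M21 annotation of GRCm38. Foxf2, a factor of palate mesenchyme and brain pericytes, measured 36.2, 35.8 and 36.7 CPM in controls and 17.9, 18.4 and 18.4 CPM after SB216763. It fell where its neighbour Foxc1 rose, with a log2 fold change of -0.99 (SE 0.05, adjusted p = 6.9e-11, edgeR). Foxq1 did not have enough counts for the test, with 34 counts over the 3 control libraries, 6 over the SB216763 libraries and 0 over the EC libraries. The ratio of control to treated was 4.23 (95% exact interval 1.76 to 12.3, counting error only), and controls were at least 2.78-fold above ECs when ECs are set to 3 counts per library. Exons of Foxq1 overlap those of A530084C06Rik on the opposite strand, and without a stated strand setting the reads of such pairs cannot be told apart.

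On chromosome 8, Foxf1 (chr8:121084386-121088144), Foxc2 (chr8:121116171-121118895) and Foxl1 (chr8:121127940-121130644) follow each other on the plus strand, with starts 31.8 kb and 11.8 kb apart. Foxf1 and Foxc2 were higher after SB216763. Foxf1, a factor of lung mesenchyme and lung vessels, measured 43.3 ± 0.694 CPM in controls, 61.3 ± 3.18 CPM after SB216763 and 58.4 ± 1.22 CPM in ECs. Its log2 fold change was 0.50 (SE 0.05, adjusted p = 6.84e-08, edgeR), and treated cells and ECs were not separated by the test (log2 fold change 0.07, SE 0.05, adjusted p = 0.156, edgeR). Foxl1, a factor of gut mesenchyme, was rare. Its libraries measured 0.126, 0.109 and 0.208 CPM in controls, 0.803, 0.834 and 0.708 CPM after SB216763, and 0.0687, 0 and 0.0232 CPM in ECs. Treated libraries lay above all others, and the log2 fold change against control was 2.49 (SE 0.34, adjusted p = 6.17e-06, edgeR). Foxl1 entered the test through its SB216763 libraries alone, so it had to differ, and this value is a description. Per kilobase, Foxf1 made up 53.9% ± 0.704 of the summed Foxf1 and Foxf2 counts in controls, 76.7% ± 1.05 after SB216763 and 99.9% ± 0.0371 in ECs.

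**Figure D3:**
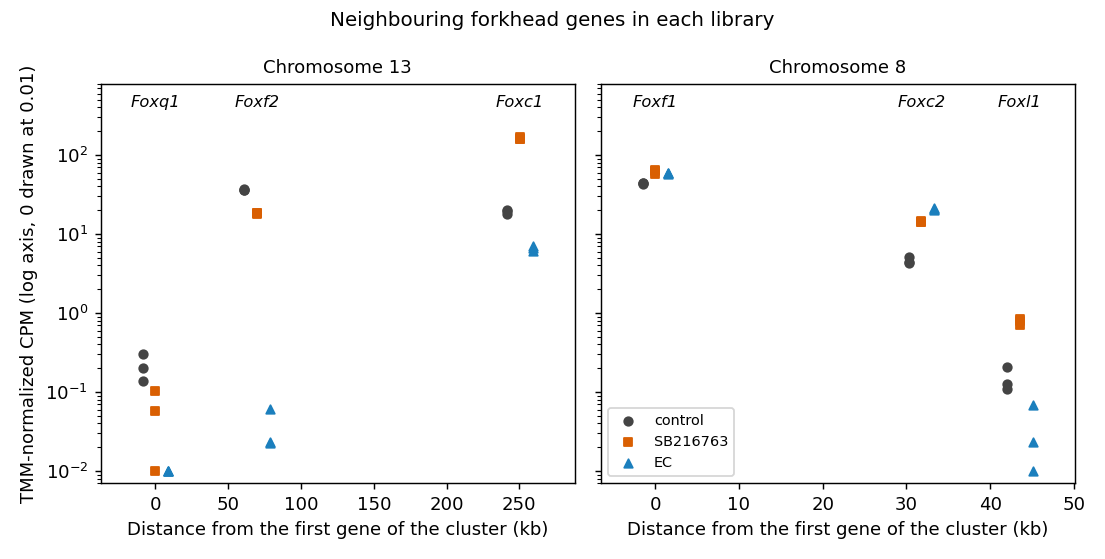
Level of the 3 forkhead genes of the chromosome 13 cluster (left) and of the chromosome 8 cluster (right) in each library, in TMM-normalized CPM on a log axis with 0 drawn at 0.01, against the distance in kb of each gene's start from the first gene's start. Points of the 3 groups are set side by side at each gene. Foxf2 and Foxc1 moved in opposite directions after SB216763, and Foxf1, Foxc2 and Foxl1 all lay above controls.

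The sequences at the starts of Foxc1 and Foxf2 are shown because these neighbours changed in opposite directions. Each window runs from 250 bases before to 50 bases after a RefSeq transcript start on GRCm38.p6, is written in the direction of transcription, and has CpG dinucleotides in capitals. The Foxc1 window (chr13:31806396-31806695, plus strand) held 32 CpG at 67.3% GC, and the Foxf2 window (chr13:31625566-31625865, plus strand) held 27 CpG at 71.3% GC.
Foxc1: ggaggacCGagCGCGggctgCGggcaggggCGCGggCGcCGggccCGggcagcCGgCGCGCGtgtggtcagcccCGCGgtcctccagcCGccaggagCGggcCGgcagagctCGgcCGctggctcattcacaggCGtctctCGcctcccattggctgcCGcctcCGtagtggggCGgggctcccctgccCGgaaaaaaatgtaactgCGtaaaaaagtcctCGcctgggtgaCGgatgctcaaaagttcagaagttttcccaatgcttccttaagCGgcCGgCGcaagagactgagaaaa
Foxf2: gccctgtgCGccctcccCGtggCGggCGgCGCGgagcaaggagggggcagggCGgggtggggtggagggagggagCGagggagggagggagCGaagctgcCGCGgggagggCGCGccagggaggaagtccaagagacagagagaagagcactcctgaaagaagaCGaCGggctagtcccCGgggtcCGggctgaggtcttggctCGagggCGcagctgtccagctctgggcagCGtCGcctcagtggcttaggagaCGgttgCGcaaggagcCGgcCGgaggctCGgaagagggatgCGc

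Windows were found for 28 of the 44 forkhead genes, 33 windows in all. Genes without a window, among them Foxm1, Foxc2 and Foxf1, were not searched. The median of the 33 windows was 62.7% GC with 22 CpG, beside 52.7% GC with 7 CpG over all 32851 mouse windows. A search on both strands covered the forkhead core GTAAACA, the TCF/LEF cores CTTTGAT (first core) and CTTTGTT (second core), and the cell cycle homology element TTTGAA. None of these letters were in the Foxc1 or Foxf2 window. GTAAACA was in 1 of the 33 windows (Foxa1) and in 3.65% of all windows, and CTTTGAT in 1 (Foxa2) and in 3.73%. CTTTGTT was in 4 (Foxa1, Foxp1 and Foxp3) and in 5.85%, and TTTGAA in 3 (Foxn3, Foxp1 and Foxp3) and in 17.9%. The GTAAACA and CTTTGTT matches of the Foxa1 window overlap, with first bases at -141 and -138 from the start. No TCF/LEF match overlapped a TTTGAA match in the forkhead windows, and a match is a string and not a measured binding site.

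The FOXO genes changed places between the cell types. Foxo3 measured 125, 106 and 117 CPM in controls, 322, 319 and 316 CPM after SB216763, and 62.1, 64.4 and 66.6 CPM in ECs. It was highest in every treated library and lowest in every EC library. The log2 fold change for SB216763 against control was 1.46 (SE 0.06, adjusted p = 9.58e-13, edgeR), and for SB216763 against ECs 2.31 (SE 0.06, adjusted p = 1.57e-15, edgeR). Foxo1, which is needed for vessel formation and acts in insulin signaling, measured 16.8, 12.7 and 13.4 CPM in controls, 21.6, 20.98 and 20.6 CPM after SB216763, and 152, 153 and 146.5 CPM in ECs. Treated libraries lay above controls without overlap (log2 fold change 0.55, SE 0.08, adjusted p = 1.78e-05, edgeR), and ECs lay 10.4-fold above controls and 7.15-fold above treated cells. Exons of Foxo1 overlap those of the antisense gene Gm20402.

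Foxo4 measured 34.4 ± 1.97 CPM in controls, 30.5 ± 1.13 CPM after SB216763 and 22.5 ± 1.48 CPM in ECs. Its difference between treated and control cells was not called (log2 fold change -0.17, SE 0.06, adjusted p = 0.0138, edgeR), and scaling by library size alone turned its sign, to 0.03. It was called lower without control replicate 2 (adjusted p = 0.00396, edgeR), with the replicate number as a block (adjusted p = 0.008, edgeR) and in a fit of control and treated libraries alone (adjusted p = 0.00534, edgeR). Per kilobase, Foxo3 made up 57.0% ± 0.884 of the summed Foxo1, Foxo3, Foxo4 and Foxo6 counts in controls, 79.0% ± 0.43 after SB216763 and 26.2% ± 1.22 in ECs. Foxo1 made up 6.13% ± 0.495, 4.56% ± 0.0755 and 53.6% ± 0.86 in the same order. Foxo3 was thus the main FOXO transcript of the osteoblasts in both states, and Foxo1 that of the ECs.

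The start regions of Foxo3 (chr10:42276646-42276945, minus strand, 35 CpG, 75.0% GC) and Foxo1 (chr3:52268087-52268386, plus strand, 31 CpG, 61.3% GC) are shown for this pair, as RefSeq windows of the same kind with CpG in capitals. Neither held any of the 4 strings searched.
Foxo3: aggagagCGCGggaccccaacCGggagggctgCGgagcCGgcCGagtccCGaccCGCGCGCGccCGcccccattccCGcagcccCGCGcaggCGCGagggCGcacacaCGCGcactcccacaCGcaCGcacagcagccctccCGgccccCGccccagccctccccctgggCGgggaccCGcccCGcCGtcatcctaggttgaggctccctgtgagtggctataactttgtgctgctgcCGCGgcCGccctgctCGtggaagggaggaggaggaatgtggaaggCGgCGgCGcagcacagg
Foxo1: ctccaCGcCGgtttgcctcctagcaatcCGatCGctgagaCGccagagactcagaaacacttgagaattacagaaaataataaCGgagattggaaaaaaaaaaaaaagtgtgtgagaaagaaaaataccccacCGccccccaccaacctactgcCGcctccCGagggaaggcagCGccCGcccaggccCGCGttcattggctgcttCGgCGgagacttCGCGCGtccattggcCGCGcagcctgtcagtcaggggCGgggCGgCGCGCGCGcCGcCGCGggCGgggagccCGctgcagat

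Known FOXO target genes were found in both directions. Of 29 on the list 26 were tested, and after SB216763 15 were higher (57.7%, beside 32.9% of all genes tested) and 8 lower (30.8%, beside 32.0%), with a median log2 fold change of 0.35. The share of lower genes was thus near that of all genes. Past the fold threshold 3 were higher (11.5%, beside 3.81%) and 0 lower (beside 5.84%). Gadd45a, a growth arrest gene, rose from 7.21 ± 0.826 to 94.7 ± 4.98 CPM, a log2 fold change of 3.74. Sesn1, a stress-induced inhibitor of mTORC1 signaling, rose from 40.5 ± 1.5 to 233 ± 5.87 CPM (log2 fold change 2.52), and the proapoptotic gene Bcl2l11 from 13.1 ± 1.38 to 62.3 ± 1.03 CPM (log2 fold change 2.25). Txnip, which encodes a thioredoxin-binding protein, fell from 158.5 ± 6.0 to 50.9 ± 0.469 CPM (log2 fold change -1.64). The adjusted p for these 4 genes was at most 3.23e-14 in edgeR's quasi-likelihood test. In ECs against controls 6 of the 26 were higher (23.1%, beside 39.0%) and 15 lower (57.7%, beside 37.9%), with a median of -0.36, and the 3 genes not tested (Trim63, Igfbp1 and G6pc) were at or near 0 in every group.

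Genes that act on forkhead proteins changed by less than the fold threshold. The list of 27 covers the kinases and phosphatase of the AKT pathway, other kinases, 14-3-3 proteins, the exporter Xpo1, acetylation enzymes and ubiquitin ligase subunits. It also holds the deubiquitinase gene Usp7 and the β-catenin gene Ctnnb1. After SB216763, 11 were higher (40.7%, beside 32.9% of all genes tested) and 11 lower (40.7%, beside 32.0%), both close to the background. Past the fold threshold there were 0, beside 3.81% of all genes higher and 5.84% lower. The median was -0.06, and with scaling by library size alone 7 in place of 11 were lower. Skp2, the F-box protein that targets FOXO1 for degradation, fell from 33.6 ± 0.806 to 8.95 ± 0.475 CPM (log2 fold change -1.91). Ywhah, a 14-3-3 protein that holds phosphorylated partners, fell from 232.5 ± 8.0 to 88.8 ± 4.08 CPM (log2 fold change -1.39). The deacetylase gene Sirt2 rose from 59.4 ± 1.61 to 122 ± 3.68 CPM (log2 fold change 1.04), and the kinase gene Akt2 from 166 ± 7.28 to 284 ± 15.9 CPM (log2 fold change 0.77). The adjusted p of each was at most 9.28e-10 in edgeR's quasi-likelihood test. RNA levels do not show phosphorylation or location of the proteins.

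A list of 20 target and partner genes of FOXC1, FOXC2 and FOXF1 in vessels had 18 tested, of which 7 were higher after SB216763 (38.9%, beside 32.9% of all genes tested) and 4 lower (22.2%, beside 32.0%), with a median log2 fold change of 0.20. Past the fold threshold 3 were higher (16.7%, beside 3.81%) and 3 lower (16.7%, beside 5.84%). Dll4, a NOTCH ligand of sprouting vessels, rose from 0.0679 ± 0.0593 to 0.701 ± 0.0565 CPM (log2 fold change 3.06) beside 12.9 ± 0.181 CPM in ECs. Notch1, a receptor of vessel growth, rose from 18.3 ± 3.14 to 138 ± 12.3 CPM (log2 fold change 2.92). Flt1, a VEGF receptor gene, fell from 64.8 ± 8.72 to 6.43 ± 0.409 CPM (log2 fold change -3.33), and Tmem100, a transmembrane protein gene of endothelium, from 25.3 ± 1.21 to 2.82 ± 0.408 CPM (log2 fold change -3.17). The adjusted p of these 4 genes was at most 7.43e-07 in edgeR's quasi-likelihood test. The endothelial markers on the list, Kdr, Tek, Pecam1, Cdh5 and Tie1, were not called, with treated means of 0.127 to 0.788 CPM beside 80.2 to 1794 CPM in ECs. Of the 18, 15 were higher in ECs than in controls (83.3%, beside 39.0%), 11 of them past the fold threshold (61.1%, beside 13.5%). The other 3, Cxcr4, Itgb5 and Tmem100, were lower (16.7%, beside 37.9%), 2 of them past the fold threshold (11.1%, beside 9.87%).

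**Figure D4:**
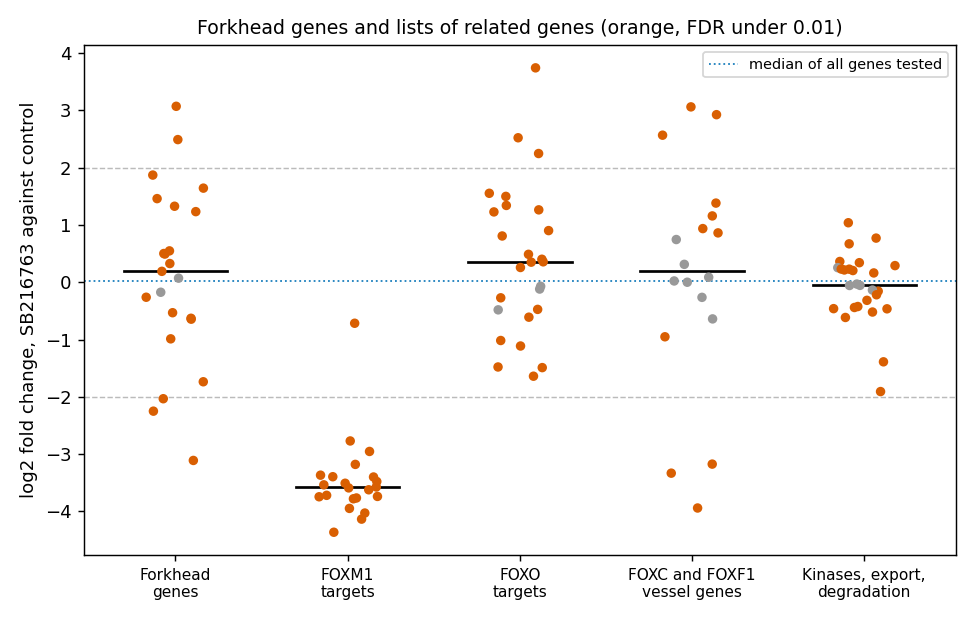
Log2 fold change for SB216763 against control of each tested gene, by list, with genes called at an FDR under 0.01 in orange, the list's median as a black bar, the median of all genes tested as a dotted line and the fold threshold as dashed lines. The FOXM1 target genes all lie below 0, and the other lists spread to both sides.

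Rare forkhead genes passed the fold threshold downward as well. Foxd1, a factor of kidney stroma, measured 0.662, 0.382 and 0.347 CPM in controls and 0.115, 0.0782 and 0.109 CPM after SB216763, and had no counts in ECs. The libraries did not overlap, and the log2 fold change was -2.25 (SE 0.43, adjusted p = 3.14e-04, edgeR). It rested on 73 counts against 11, a ratio of 4.96 (95% exact interval 2.62 to 10.4). Without control replicate 1 the log2 fold change was -1.86, so Foxd1 was still called lower but lost the fold threshold. Foxd1 entered the test through its control libraries alone, and its values too are a description. Foxn1, the factor of thymic epithelium, measured 0.236, 0.182 and 0.313 CPM in controls, 0.0573, 0.0521 and 0.0545 CPM after SB216763, and 0.366, 0.365 and 0.185 CPM in ECs. Treated libraries lay lowest, at 6 counts in all against 34, with a log2 fold change of -2.03 (SE 0.52, adjusted p = 0.00226, edgeR). Foxn1 reached the count level needed for the test in 1 control library, 2 EC libraries and no SB216763 library. Its low treated level was thus selected for in part, and its values are a description as well. In the fit of control and treated libraries alone, and with 1 of the other filters, Foxn1 was not tested. Without SB216763 replicate 2 Foxn1 was not called (adjusted p = 0.0104, edgeR), and without control replicate 3 its log2 fold change was -1.90. Foxj1, the factor of motile cilia, was called higher after SB216763 at 0.508 ± 0.0452 against 0.195 ± 0.12 CPM (log2 fold change 1.23, SE 0.35, adjusted p = 0.00529, edgeR). It lost that call with control replicate 1 or 3, or with any 1 of the treated libraries, left out (adjusted p 0.0109 to 0.0236, edgeR). The call was also lost in DESeq2 (adjusted p = 0.02, DESeq2) and in a fit of control and treated libraries alone (adjusted p = 0.0109, edgeR). Foxj1 reached the count level needed for the test in all 3 SB216763 libraries, 1 control library and no EC library. Its high treated level was thus selected for in part, and its values are likewise a description.

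Further members changed by less than the fold threshold. Foxn3, a repressor linked to cell cycle checkpoints, had the third largest rise, from 13.9, 12.3 and 12.3 CPM in controls to 48.2, 47.8 and 45.7 CPM after SB216763, with ECs between them at 29.6, 28.7 and 26.3 CPM. No libraries overlapped, and the log2 fold change was 1.87 (SE 0.06, adjusted p = 1.82e-13, edgeR). Foxs1, a gene known from pericytes and vascular smooth muscle, rose from 5.31 ± 0.407 to 13.3 ± 0.746 CPM and measured 0.204 ± 0.0513 CPM in ECs. Smooth muscle and pericyte markers moved otherwise, from 2863 to 3042 summed CPM in controls, nearly all from Acta2, to 138 to 155 CPM after SB216763. Foxl2, the factor of ovarian granulosa cells, rose from 10.9 ± 0.535 to 15.5 ± 0.998 CPM, and the RNA gene Foxl2os beside it from 8.93 ± 0.492 to 14.6 ± 2.77 CPM. Exons of this pair overlap on opposite strands, so reads of the pair cannot be assigned with certainty.

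Among the broadly expressed members, Foxj2 rose from 59.6 ± 3.42 to 74.7 ± 0.738 CPM and Foxp4 from 101 ± 1.19 to 116 ± 2.65 CPM. Foxp1, a repressor of the same subfamily as Foxp4, went the other way, from 109 ± 3.81 to 70.6 ± 0.904 CPM, and was highest in ECs at 165 ± 3.38 CPM. Its exons overlap those of Gm20696 on the same strand. Foxk2 fell from 171 ± 5.61 to 109 ± 2.31 CPM, and Foxk1, its relative in the repression of starvation genes, from 106 ± 7.70 to 88.2 ± 1.42 CPM. The Foxk1 call did not hold with scaling by library size alone (adjusted p = 0.323, edgeR). Foxn2 fell from 78.4 ± 6.37 to 54.3 ± 3.71 CPM, and Foxd2 from 2.39 ± 0.434 to 0.697 ± 0.0905 CPM, a log2 fold change of -1.74 (SE 0.19, adjusted p = 4.04e-07, edgeR). Foxd2os, the RNA gene beside Foxd2, fell with it, from 9.26 ± 0.206 to 3.32 ± 0.31 CPM (log2 fold change -1.47). Foxj3 measured 56.5 ± 1.52 CPM in controls and 59.3 ± 0.235 CPM after SB216763 (log2 fold change 0.07, SE 0.04, adjusted p = 0.14, edgeR), and Fendrr, the RNA gene beside Foxf1, 5.94 ± 1.21 and 7.15 ± 0.82 CPM (adjusted p = 0.0394, edgeR).

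More of the tested forkhead genes were lower than higher in ECs against control osteoblasts. Of the 23 tested, 6 were higher in ECs (26.1%, beside 39.0% of all genes tested) and 13 lower (56.5%, beside 37.9%). Past the fold threshold, Foxo1 and Foxc2 were higher (2 of 23, 8.70%, beside 13.5%), and Foxf2, Foxl2, Foxd1 and Foxs1 were lower (4 of 23, 17.4%, beside 9.87%). The median log2 fold change was -0.62, and that of all genes tested was 0.01. Foxf2 had 1, 2 and 1 counts in the EC libraries, and controls were 1081-fold higher (95% exact interval 421.8 to 3968). Foxl2 had 1 count in each EC library, and controls were 441.6-fold higher (interval 150.9 to 2144). Foxd1 had 0 counts in ECs, and controls were at least 6.06-fold higher with ECs set to 3 counts per library. Foxs1 was 25.1-fold lower in ECs than in controls (log2 fold change -4.65, SE 0.17, adjusted p = 2.99e-13, edgeR). Foxk1 (106 ± 7.70 CPM in controls and 105 ± 4.06 CPM in ECs), Foxj1, Foxl1 and Foxn1 were not called, and the small difference of Foxk1 turned its sign with scaling by library size alone. Foxl1 was called lower in ECs without EC replicate 1 (log2 fold change -3.11, adjusted p = 0.00474, edgeR), and Foxj1 without control replicate 3 (adjusted p = 0.00231, edgeR).

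All tested members other than Foxf1 and Foxn2 differed between SB216763-treated osteoblasts and ECs, and those 2 were also called with scaling by library size alone. The 3 comparisons share libraries, so values are given side by side. Of the 23, 13 were higher in SB216763-treated cells than in ECs (56.5%, beside 38.3% of all genes) and 8 lower (34.8%, beside 40.3%), with a median of 0.44 beside -0.02. Past the fold threshold, Foxc1, Foxd1, Foxf2, Foxj1, Foxl1, Foxl2, Foxo3 and Foxs1 were higher in treated cells (8 of 23, 34.8%, beside 10.3%), and Foxm1, Foxn1 and Foxo1 were lower (3 of 23, 13%, beside 15.0%). The Foxd1 call rests on 11 counts against 0, which with ECs set to 3 counts per library gives a level at least 1.31-fold higher. Foxd1 and Foxn1 were not tested in the fit of these groups alone. Foxj1 and Foxl1 reached the count level for the test in all 3 SB216763 libraries and no EC library. Their calls here are a description. Foxc1, Foxj2, Foxl2, Foxm1, Foxo3, Foxp1, Foxp4 and Foxs1 were called in opposite directions in SB216763-treated cells and in ECs against controls, so the treated mean lay on the far side of the control mean from ECs. The log2 distance of Foxs1 from ECs was 4.65 in controls and 5.98 after treatment in absolute size. For Foxf2 the treated mean lay between, still 545.8-fold above ECs (95% exact interval 212.9 to 2005). Foxc2, Foxf1, Foxn3 and Foxo1 were higher in both treated cells and ECs than in controls, and Foxo1 stayed 7.15-fold below ECs (log2 fold change -2.84, SE 0.08, adjusted p = 4.86e-15, edgeR). Foxd1, Foxd2, Foxf2, Foxk2 and Foxn2 were called lower in both. How many of all genes tested fell into each of these classes was not counted.

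The remaining 21 forkhead genes were not tested for lack of counts. No library held a count of Foxb1, Foxb2, Foxe3, Foxi1 or Foxi2, and with those 5 included, 11 genes stayed under 3 counts in every library. The others were Foxa2, Foxa3, Foxd3, Foxd4, Foxe1 and Foxi3. At most 10 counts in any library were found for 18 of the 21. Foxo6, the FOXO member known from brain, had 33 counts over the EC libraries, 3 over controls and 2 over treated cells, a ratio of 13.5 for ECs against controls (95% exact interval 4.25 to 68.96). Foxh1, a partner of SMAD proteins, had 13 counts over ECs, 0 over controls and 4 over treated cells. Foxp3, the factor of regulatory T cells, had 10, 15 and 10 counts over the control, treated and EC libraries, and its exons overlap those of Ccdc22 and Ppp1r3f.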

How the data were processed

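RNA-Seq of 3 control, 3 SB216763-treated and 3 EC libraries was analysed. The authors aligned the reads with STAR (2.5.3a on GRCm38 in the submitters' processing notes) and deposited raw counts per gene, whole numbers without normalization. The annotation release and strand setting are not given in the sources used here. Symbols were found for 50376 of 50686 Ensembl identifiers, and GENCODE M21 entries for 50462, of which 21841 are protein-coding.

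The deposited counts were tested in R 4.3.3 with edgeR 4.0.16 (filterByExpr, TMM, quasi-likelihood F-test, prior count of 0.125), with all 9 libraries in 1 fit and Benjamini-Hochberg adjustment over 15531 genes. The standard error of a log2 fold change is its size divided by the square root of F. The test was run first on simulated counts with 200 changed genes. Depth was 30990107 to 68946333 counts, and a group at 0 in every library was set to 3 counts per library for a lower bound. Groups with a few counts are given as a ratio with its interval. Intervals are 95% exact and, like these floors, cover counting error only. No pair of libraries of a group agreed within sampling noise.

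The forkhead genes, the other lists and the tests were chosen with earlier results of these data known. The lists were written by hand from general knowledge. Forkhead genes with a mean of at least 1 CPM in 1 group, or past the fold threshold in any comparison, are named, and those past it for SB216763 against control, with the largest 3 in each direction, have all library values. From each other list, up to 4 genes with the largest change and at least 10 CPM in 1 group are named, and others were named after their values were seen. Lung epithelial markers summed to at most 0.278 CPM in every library. Leukocyte markers summed to 8.28 to 58.4 CPM, mostly Lyz2 and Cd68. Lymphatic markers summed to 90.8 to 264.5 CPM, nearly all Pdpn in the osteoblasts of both states and nearly all Lyve1 and Flt4 in ECs. Prox1 stayed under 3 counts in every library. Alternatives were library-size and upper-quartile scaling, DESeq2 1.42.0, limma-voom (limma 3.58.1), other filters, a fit of only 2 groups, a replicate block and leaving out each library. Promoter windows came from RefSeq GRCm38.p6, and protein sequences were not used here. The values of 1 untested member are not reported here.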

Additional observations from a re-analysis of the deposited data

How the results depend on the processing

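Whether libraries with the same replicate number belong together is not given in the labels. Deviations of same-numbered libraries correlated at 0.0524 to 0.258 between control and SB216763, at -0.0804 to 0.0967 between control and EC, and at -0.0549 to -0.00153 between SB216763 and EC. Between control and SB216763, 4 of 6 libraries correlated best with the library of their own number. It was 2 of 6 between control and EC, and 0 of 6 between SB216763 and EC. A replicate block in the fit moved the count of lower members for SB216763 against control from 9 to 10, by Foxo4 (adjusted p = 0.008, edgeR), and the calls past the fold threshold in that comparison stayed at 2 higher and 3 lower. Over all alternatives, 1140 values of single genes kept their direction and their side of an FDR of 0.01, with fold size not considered. A further 12 became called, 9 lost their call and 4 changed sign. Those 4 were Foxo4 for SB216763 against control (0.029, library size alone) and Foxk1 for EC against control (0.11 with library size alone, and -0.082 to 0.014 with each library left out, above 0 without control replicate 1 or EC replicate 2). Foxn1 lost the fold threshold with library size alone (-1.84) and limma-voom (-1.81).

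With no filter, 4 members were higher in ECs than in controls past the fold threshold in place of 2, Foxh1 and Foxo6 being added. Foxo6 also passed in some fits with 1 library left out (log2 fold change 3.51 to 4.61). With library size alone, 7 of the kinase, export and degradation genes were lower after SB216763 in place of 11, and the summed forkhead CPM was 1046 in controls, 1381 after SB216763 and 1153 in ECs. Of 6 listed RNA genes beside forkhead genes, 3 were tested. After SB216763, 1 was higher (33.3%, beside 32.9% of all genes tested) and 1 lower (33.3%, beside 32.0%), both near the background. With library size alone and with no filter 2 were higher in place of 1, and 1 to 2 with each library left out. Leaving out each library gave 11 to 12 higher and 8 to 10 lower members for SB216763 against control, with 2 to 3 lower past the fold threshold. It gave 6 to 7 higher and 13 to 14 lower for EC against control. The causes of these changes were not tested. Depth limits the 21 untested genes and the rare Foxd1, Foxj1, Foxl1 and Foxn1.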
